A study of Bos taurus with 21 samples.

Results

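The 9 high yielding (HY) Holstein cows of the study were compared by their milk fat value, 4 cows above 2.5 against 5 cows below 2, out of 21 cows in all. The study collected cells from milk to search for genes whose expression follows milk traits, and 12 low yielding (LY) cows made up the rest of the series. The milk fat value is a breeding value with no unit in the labels, so it ranks the cows but is not the fat content of the milk that was sampled. All 9 cows were Holstein and of the high milk yielding group, each cow gave 1 library of RNA from milk somatic cells, and the labels name no treatment. The high value cows were 2814, 2920, 3075 and 3235, with milk fat values of 2.783, 10.928, 3.69 and 5.786, parities of 3, 4, 2 and 2, and lactation periods of 41, 168, 101 and 176. The low value cows were 3014, 3057, 3064, 3262 and 3280, with milk fat values of -10.109, -1.84, 0.606, 1.175 and 1.679, parities of 3, 2, 2, 2 and 2, and lactation periods of 268, 265, 220, 65 and 108. The labels give no unit for the lactation period either. Cow 2814, at 2.783, was the lowest of the high value cows and cow 3280, at 1.679, the highest of the low value cows, so the cows nearest the boundary differed little in the value that divided them.

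Milk fat is made in the epithelial cells of the mammary gland. These cells build fatty acids from acetate, take up others that lipoprotein lipase frees from blood triacylglycerol, join them to glycerol, and release the resulting droplet wrapped in their own membrane as a milk fat globule. Milk somatic cells are a mixture of leukocytes, chiefly macrophages, neutrophils and lymphocytes, with epithelial cells shed from the gland, so a library of them can carry RNA of the fat-making cells as well as of immune cells.

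The libraries of the 9 cows held 7878557 to 25550423 gene counts, and 9236 of 13570 gene rows passed the filter on low counts. The libraries differed most in the genes of the milk proteins, which took 39.5% of the counts in cow 3075, 60.4% in cow 3262 and 56.4% in cow 3280, but 0.118 to 15.1% in the other 6 cows. Markers of the labelled source were present, with CD68 (macrophages), S100A8 (neutrophils), CD3E (T cells) and KRT8 (epithelium) counted in all 9 cows. The groups also differed in traits that did not choose them. The mean lactation period was 121.5 ± 63.3 (SD, n = 4) in the high value cows and 185.2 ± 93.3 (SD, n = 5) in the low value cows (two-sided exact permutation p = 0.286, adjusted p = 0.611 over 11 values). The milk yield value was 243.1 ± 52.5 and 336.2 ± 124.6 in the same order (two-sided exact permutation p = 0.238, adjusted p = 0.611), and the milk protein value was 5.04 ± 2.96 and 9.02 ± 3.92 (exact permutation p = 0.127, adjusted p = 0.611). None of the 11 values separated the groups beyond their spread, and the smallest p that the 126 ways to choose 4 of 9 cows allow is 0.0159. The 3 longest lactation periods nevertheless all belonged to low value cows.

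**Figure D1:**
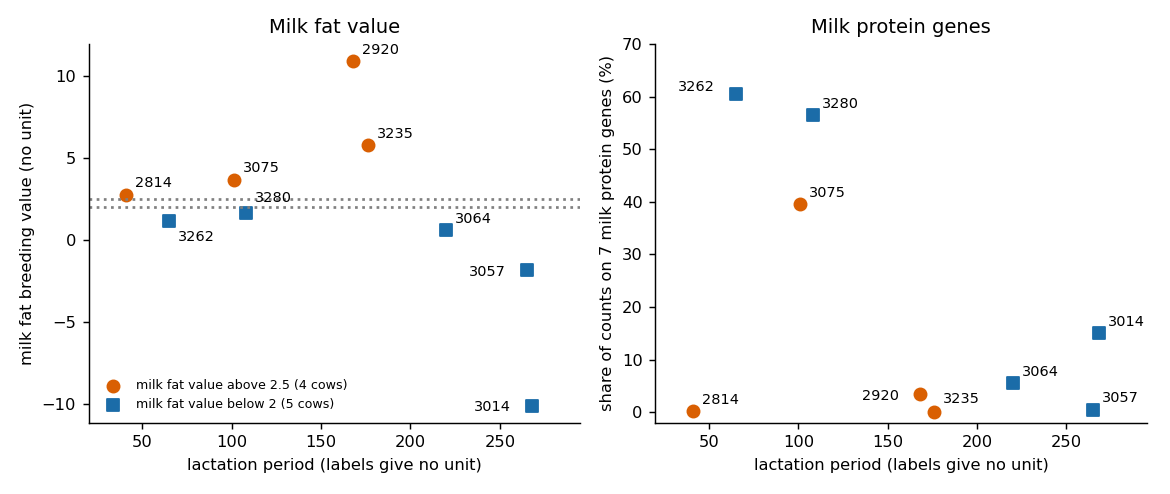
Milk fat breeding value (left) and share of gene counts on 7 milk protein genes in percent (right) of each of the 9 HY cows against its lactation period. The dotted lines stand at 2.5 and 2, and the 3 cows with the most milk protein counts, 3262, 3280 and 3075, lay between lactation periods of 65 and 108.

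No gene differed between the cows of high and low milk fat value at a false discovery rate (FDR) of 0.05 in the edgeR quasi-likelihood test, and the lowest adjusted p was 0.998. At an unadjusted p under 0.05, 125 of 9236 genes (1.35%) differed, 50 (0.541%) higher and 75 (0.812%) lower in the high value cows, where 461.8 genes would be expected by that threshold alone. DESeq2 gave 264 genes and limma voom 86 at the same unadjusted threshold, and neither gave any gene at an FDR of 0.05. Expression is given below in CPM, read counts relative to a library size scaled with the TMM factors, which is not divided by gene length, and every fold change is the high value cows over the low value cows on the log2 scale with its standard error. The differences described up to the fit with lactation period come from this comparison, and none of them passed an FDR of 0.05 with any of the 3 tools.

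Casein and whey protein genes are the most specific products of the milk-making epithelial cell. All 7 milk protein genes measured had a lower fitted level in the high value cows, with a median of -1.89 on the log2 scale against 0.01 over all genes tested, and 0 of 7 reached an unadjusted p of 0.05. CSN2 (β-casein) had 549.9, 9623, 103800 and 268 CPM in cows 2814, 2920, 3075 and 3235. CSN2 had 54940, 1054, 12260, 321200 and 164800 CPM in cows 3014, 3057, 3064, 3262 and 3280. CSN2 thus spanned about the same range in both groups, and the difference of -1.96 ± 1.77 in log2, unadjusted p = 0.291, was smaller than this spread. LALBA (α-lactalbumin, the lactose synthase subunit) had 80.6, 1362, 31700 and 24.2 CPM in the high value cows and 6524, 74.5, 1543, 82470 and 91920 in the low value cows. CSN3 (κ-casein, which coats the casein micelle) lay at 97.4 to 54180 CPM in the high value cows and 402 to 147300 in the low value cows. Cow 3075 stood apart from the other high value cows in each of these genes. Without cow 3075, 7 of 7 milk protein genes were lower at an unadjusted p under 0.05, with a median of -6.02, beside 5.57% of all genes lower at that threshold, and still no gene passed an FDR of 0.05. In every other fit that left out 1 cow, 0 of 7 were lower at that threshold, with medians of -2.20 to -1.44. In such bulk samples, fewer cells of a type and less RNA per cell cannot be told apart.

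Genes of fatty acid synthesis split in direction. Of 11 members tested, 0 reached an unadjusted p of 0.05 and the median was -0.73. FASN, the fatty acid synthase that makes the short and medium chains of milk fat, had 60.2, 141, 486 and 31.7 CPM in cows 2814, 2920, 3075 and 3235. FASN had 607, 48.2, 205, 1332 and 1805 CPM in cows 3014, 3057, 3064, 3262 and 3280. Its highest values were in low value cows 3262 and 3280 and its lowest in cows 3235 and 3057, one of each group, so the groups overlapped (difference -2.15 ± 1.03 in log2, unadjusted p = 0.0602). SCD, the desaturase that makes oleic acid, had 118, 332, 2124 and 122 CPM in the high value cows and 1343, 115, 386, 3241 and 5144 in the low value cows, a difference of -1.60 ± 1.14 in log2, unadjusted p = 0.186. ACACA, which makes the malonyl-CoA used by FASN, lay at 13.7 to 67.7 CPM in the high value cows and 23.5 to 162 in the low value cows (-0.98 ± 0.60). ACSS2, which activates acetate, lay at 38.1 to 337 CPM in the high value cows and 33.4 to 649.6 in the low value cows (-1.28 ± 0.97). In FASN, SCD, ACACA and ACSS2 alike, cows 3262 and 3280 had the 2 highest values of the low value cows. ACLY, which draws acetyl-CoA from citrate, went the other way, with 93.0, 89.3, 50.5 and 109.8 CPM in the high value cows and 58.5, 75.2, 81.7, 41.0 and 23.2 in the low value cows (difference 0.61 ± 0.41 in log2, unadjusted p = 0.157). Its lowest values were in cows 3280, 3262 and 3075, the same 3 cows that held the most milk protein counts.

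Of 13 genes of fatty acid uptake and activation, 1 was lower and 0 were higher at an unadjusted p under 0.05, beside 0.812% and 0.541% of all genes, and the median was -0.26. That gene was LPL, the lipoprotein lipase, with 233, 308, 769 and 279 CPM in cows 2814, 2920, 3075 and 3235. LPL had 456, 742, 772, 1487 and 1013 CPM in cows 3014, 3057, 3064, 3262 and 3280. Of the high value cows, 3 lay below every low value cow, while cow 3075 lay between them, and the difference was -1.17 ± 0.50 in log2, unadjusted p = 0.0393. The p of LPL was under 0.05 in 4 of 9 fits that left out a cow, the highest being 0.104 without cow 3235. CD36, a fatty acid transporter also found on macrophages, lay at 1204 to 2573 CPM in the high value cows and 1710 to 2715 in the low value cows (-0.36 ± 0.42). FABP3, the fatty acid carrier of lactating epithelium, ran from 67.2 to 6707 CPM in the high value cows and 97.0 to 14920 in the low value cows, and its difference of -1.48 ± 1.56 in log2, unadjusted p = 0.361, was small beside that spread. FABP4, the carrier of adipocytes and macrophages, had 124, 171, 851 and 232 CPM in the high value cows and 156, 1460, 1172, 1811 and 281 in the low value cows (-1.50 ± 0.81 in log2, unadjusted p = 0.0883). The 3 highest FABP4 values were those of low value cows 3262, 3057 and 3064, and of these cow 3262 alone was also among the 3 highest in FABP3.

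The 12 genes tested that build triacylglycerol showed no shared direction, with a median of -0.09 and 0 of 12 at an unadjusted p under 0.05. DGAT1, the last enzyme of the pathway and a well-known locus of milk fat variation in cattle, had 14.1, 10.99, 7.85 and 28.3 CPM in cows 2814, 2920, 3075 and 3235. DGAT1 had 9.64, 8.84, 6.01, 13.4 and 7.02 CPM in cows 3014, 3057, 3064, 3262 and 3280. Cow 3235 had the highest and cow 3064 the lowest value, the other cows were interleaved, and the difference was 0.77 ± 0.45 in log2, unadjusted p = 0.117. GPAM, which attaches the first fatty acid to glycerol, ran from 6.01 to 799.6 CPM in the high value cows and 11.3 to 2346 in the low value cows (-1.51 ± 1.58). AGPAT6 (now GPAT4, an enzyme of the same step) lay at 104 to 238 CPM in the high value cows and 42.6 to 331 in the low value cows (-0.54 ± 0.57). DGAT2, another enzyme of the last step, lay at 84.9 to 180.1 CPM in the high value cows and 19.3 to 421 in the low value cows, without a difference in its fitted mean.

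Of 12 genes of the fat globule and lipid droplet, 11 had a lower fitted level in the high value cows and the median was -1.12, but 0 of 12 reached an unadjusted p of 0.05. BTN1A1, butyrophilin of the globule membrane, had 3.38, 59.1, 1546 and 2.45 CPM in cows 2814, 2920, 3075 and 3235. BTN1A1 had 416, 4.83, 89.8, 2982 and 4213 CPM in cows 3014, 3057, 3064, 3262 and 3280. These values covered about the same range in both groups, cows 2814 and 3235 being as low as cow 3057, and the difference was -1.94 ± 1.87 in log2, unadjusted p = 0.322. XDH, the xanthine oxidoreductase that binds butyrophilin at the globule surface, had 342, 1223, 3297 and 906 CPM in the high value cows and 1989, 467, 455, 2774 and 8570 in the low value cows (-0.98 ± 0.92 in log2, unadjusted p = 0.308). The XDH difference was -0.00355 in log2 without cow 3280. PLIN2, the coat protein of the droplet, lay between 1211 and 2664 CPM in the high value cows and between 1608 and 2362 in 4 low value cows, with 13420 in cow 3280 (-1.26 ± 0.75 in log2, unadjusted p = 0.119). Without that cow the PLIN2 difference was -0.11 in log2. MFGE8 (lactadherin) ran from 24.6 to 392 CPM in the high value cows and 30.4 to 1807 in the low value cows and MUC1, a mucin of the apical membrane, from 1.03 to 195 CPM in the high value cows and 4.64 to 747 in the low value cows. Without cow 3075, 5 of 14 members tested were lower at an unadjusted p under 0.05, beside 5.57% of all genes. The count was 1 of 13 without cow 3014 and 0 without any other single cow.

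**Figure D2:**
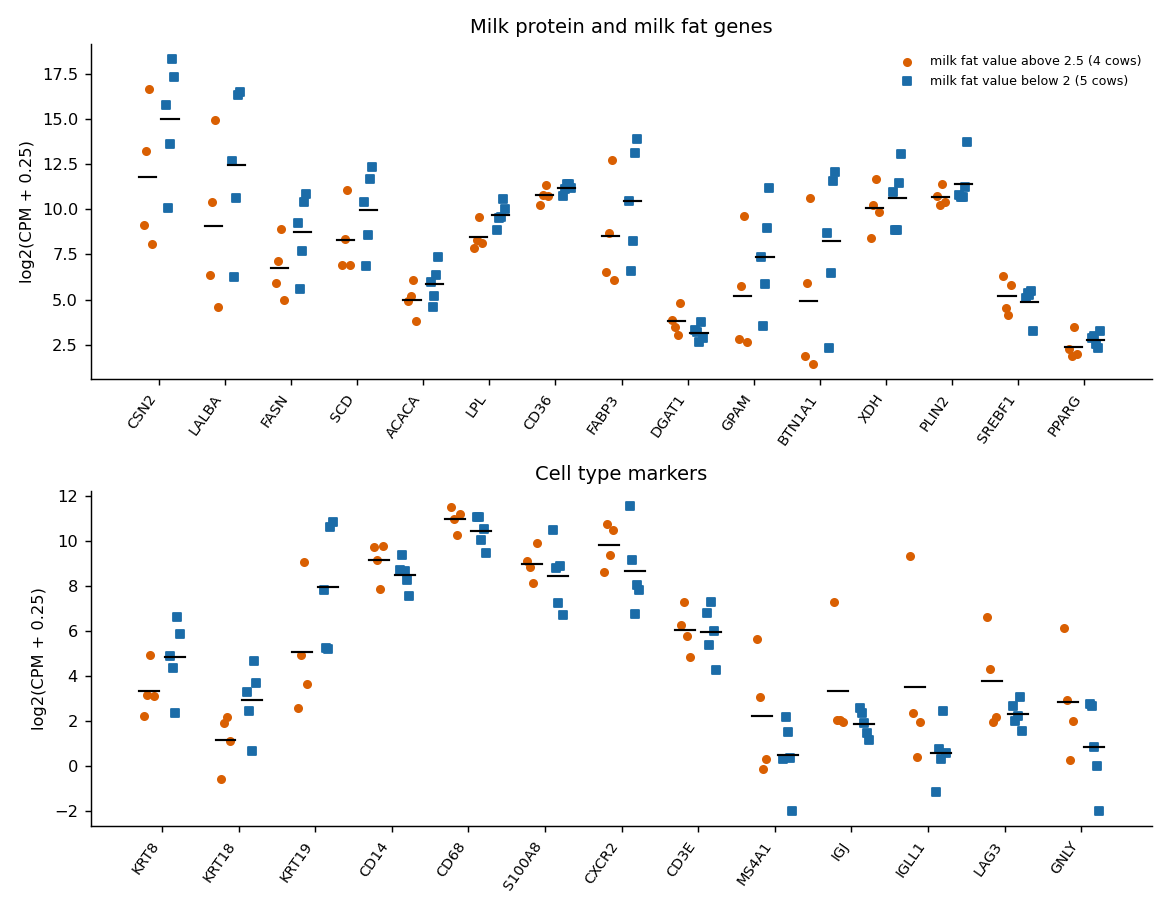
Expression of milk protein and milk fat genes (top) and of cell type markers (bottom) as log2(CPM + 0.25), with 1 point per cow and a black line at the group mean. The points of the 2 groups overlap in every gene shown, and IGLL1 and IGJ are set apart by cow 2814 alone.

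The transcription factors that govern lipid synthesis differed little. Of 16 regulators tested, 0 reached an unadjusted p of 0.05, with a median of 0.05. SREBF1, the activator of fatty acid synthesis genes, had 80.2, 22.6, 17.6 and 55.1 CPM in cows 2814, 2920, 3075 and 3235. SREBF1 had 33.4, 40.8, 37.5, 44.7 and 9.17 CPM in cows 3014, 3057, 3064, 3262 and 3280 (0.41 ± 0.53 in log2, unadjusted p = 0.463). PPARG, a nuclear receptor of lipid storage, lay at 3.41 to 10.8 CPM in the high value cows and 4.79 to 9.17 in the low value cows (-0.29 ± 0.49). INSIG1, which holds the SREBF proteins in the membrane when sterols are plentiful, lay at 75.2 to 389 CPM in the high value cows and 58.4 to 385 in the low value cows (0.07 ± 0.67). The 21 genes of cholesterol synthesis and uptake had a median of 0.19, 16 of them with a higher fitted level in the high value cows and 0 at an unadjusted p under 0.05. ACAT2, a thiolase at the entry of the sterol pathway, had 85.2, 143, 76.2 and 126 CPM in the high value cows and 70.1, 100.4, 59.8, 36.8 and 25.5 in the low value cows (0.88 ± 0.42 in log2, unadjusted p = 0.0592). Cholesterol efflux and foam cell genes had a median of 0.25 and 0 of 13 at that threshold. ABCA1, the cholesterol exporter of macrophages, had 66.7, 437, 38.8 and 75.4 CPM in the high value cows and 60.6, 67.7, 107, 3.89 and 9.71 in the low value cows (1.63 ± 0.92 in log2, unadjusted p = 0.103), cow 2920 standing apart from all others. Fatty acid oxidation, with 16 genes tested and a median of -0.18, and lipolysis, with 6 and a median of 0.27, also had 0 at an unadjusted p under 0.05. PNPLA2, the lipase that starts triacylglycerol breakdown, had the lowest p among these, with 3.89, 3.05, 3.79 and 5.24 CPM in the high value cows and 6.46, 2.95, 3.12, 13.8 and 20.5 in the low value cows (-1.22 ± 0.64 in log2, unadjusted p = 0.0793). LIPA, of the lysosome, and NR1H3, a sterol receptor, each stood in 2 of these lists.

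Markers of epithelial cells ordered the cows much as the milk protein genes did. Of 11 epithelial markers tested, 10 had a lower fitted level in the high value cows, with a median of -1.81, and 1 was lower at an unadjusted p under 0.05, where all genes gave 0.812%. That gene was KRT18, a keratin of simple epithelia, with 0.428, 3.49, 4.33 and 1.89 CPM in cows 2814, 2920, 3075 and 3235. KRT18 had 9.44, 5.14, 1.36, 25.1 and 12.8 CPM in cows 3014, 3057, 3064, 3262 and 3280 (-2.09 ± 0.85 in log2, unadjusted p = 0.0306). The lowest value, in cow 2814, and the highest, in cow 3262, were in opposite groups, but cow 3064 lay below 3 of the high value cows. KRT18 lost its unadjusted p under 0.05 without cow 2814, 3235 or 3262, with -1.52 in log2 and an edgeR p of 0.096 without cow 3262. KRT8, the partner of KRT18 in the same filament, had 4.41, 8.66, 30.2 and 8.35 CPM in the high value cows and 29.9, 20.4, 4.89, 99.7 and 59.0 in the low value cows (-1.74 ± 0.80 in log2, unadjusted p = 0.0514). KRT19 ran from 5.78 to 536 CPM in the high value cows and 36.8 to 1874 in the low value cows, with cows 3262, 3280 and 3075 the highest. The summed level of the epithelial list was 33.9, 155, 1200 and 71.7 CPM in the high value cows and 682, 154, 148, 2731 and 3959 in the low value cows. Without cow 3075, 10 of 11 epithelial markers were lower at an unadjusted p under 0.05, and without the 3 cows richest in milk protein counts 4 of 10, beside 5.57% and 1.36% of all genes. The count was 0 without cow 2814, 3235 or 3262, and 1 to 4 when each of the other cows was left out. The part of epithelial RNA in the differences of the milk fat genes was not tested.

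B cell markers went the other way, through 1 cow. Of 5 tested, 3 were higher at an unadjusted p under 0.05, beside 0.541% of all genes, and the median was 3.02. IGLL1, an immunoglobulin lambda-like chain, had 647, 4.85, 1.08 and 3.68 CPM in cows 2814, 2920, 3075 and 3235. IGLL1 had 0.199, 1.44, 0.985, 5.17 and 1.26 CPM in cows 3014, 3057, 3064, 3262 and 3280. IGJ (now JCHAIN), the joining chain of IgA and IgM, had 158, 3.89, 3.92 and 3.68 CPM in the high value cows and 5.76, 4.83, 3.50, 2.54 and 1.98 in the low value cows. MS4A1, the B cell antigen CD20, had 50.1, 8.26, 0.677 and 1.002 CPM in the high value cows and 0.994, 4.33, 2.62, 1.05 and 0 in the low value cows. In all 3 genes cow 2814 was far above the other 8 cows, which did not separate by group. Their differences were 6.49 ± 1.77 in log2, unadjusted p = 0.00347 for IGLL1, 3.50 ± 1.11 in log2, unadjusted p = 0.00862 for IGJ and 3.02 ± 1.22 in log2, unadjusted p = 0.03 for MS4A1. Without cow 2814, 0 of 5 B cell markers had an unadjusted p under 0.05, the median was 0.04, and the p of IGLL1, IGJ and MS4A1 was 0.388, 0.95 and 0.456. Immunoglobulin genes are many and alike, so the counts of IGLL1 may hold reads of related genes.

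All 6 cytotoxic cell markers tested had a higher fitted level in the high value cows, with a median of 1.08. Without cow 2814 the median was 0.93 over the 7 then tested. GNLY, granulysin of killer cells, was the 1 of 6 that was higher at an unadjusted p under 0.05, beside 0.541% of all genes. GNLY was highest in cow 2814, with 69.8, 7.38, 0.947 and 3.79 CPM in the high value cows and 6.56, 6.21, 1.56, 0.749 and 0 in the low value cows (2.75 ± 1.23 in log2, unadjusted p = 0.0461). Its p was 0.714 without cow 2814. GZMA, a granzyme, lay at 0.135 to 35.7 CPM in the high value cows and 0 to 6.89 in the low value cows, with its highest values in cows 2920 and 2814 (2.56 ± 1.45 in log2, unadjusted p = 0.104). The other leukocyte lists had 0 members at an unadjusted p under 0.05 out of 7 for neutrophils, 8 for macrophages, 10 for T cells, with medians of -0.11, 0.26 and -0.02. CD14, the endotoxin co-receptor of macrophages, had 852, 581, 235 and 898 CPM in the high value cows and 421, 677, 409.6, 308 and 187 in the low value cows (0.68 ± 0.49 in log2, unadjusted p = 0.193). CD68, of macrophage lysosomes, lay at 1240 to 2984 CPM in the high value cows and 709 to 2149 in the low value cows (0.51 ± 0.48). CXCR2, the neutrophil chemokine receptor, lay at 402 to 1755 CPM in the high value cows and 109 to 3036 in the low value cows (0.34 ± 0.89), and CD3E, of the T cell receptor complex, at 29.0 to 158 CPM in the high value cows and 19.2 to 160.2 in the low value cows. The 8 class II antigen presentation genes tested had a median of 0.20 and 0 at that threshold, and none of the 5 erythroid genes passed the filter on low counts.

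The genes of lowest p were described as a set of 10 in each direction. On the higher side, IGLL1, IGJ and LAG3 followed cow 2814, and LOC790811, a locus the reference does not name, followed cow 3235, with 426 CPM there and 1.97 to 12.6 in the low value cows. LAG3, an inhibitory receptor of activated T cells, had 99.0, 19.6, 3.65 and 4.23 CPM in the high value cows and 6.06, 3.76, 4.38, 8.23 and 2.70 in the low value cows. Its p was 0.211 without cow 2814, and that of LOC790811 was 0.884 without cow 3235. In 5 of the other 6 every high value cow lay above every low value cow, and in the sixth, EDNRB, 3 of 4 did.

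SLAMF7, a receptor of natural killer cells, plasma cells and activated macrophages, had 389, 647, 281 and 511 CPM in cows 2814, 2920, 3075 and 3235. SLAMF7 had 164, 206, 209, 97.2 and 261 CPM in cows 3014, 3057, 3064, 3262 and 3280. Every high value cow lay above every low value cow, though cow 3075 exceeded cow 3280 by little, and the difference was 1.29 ± 0.40 in log2, unadjusted p = 0.00751 (95% interval 0.42 to 2.16). SLAMF7 had an unadjusted p under 0.05 in 21 of 21 alternative fits. PECAM1, the adhesion molecule CD31 of endothelium, platelets and leukocytes, had 14.7, 25.0, 18.5 and 72.7 CPM in cows 2814, 2920, 3075 and 3235. PECAM1 had 13.4, 12.1, 7.95, 6.74 and 7.38 CPM in cows 3014, 3057, 3064, 3262 and 3280. Its groups did not overlap either, cow 3235 had the highest value, and the difference of 1.78 ± 0.50 in log2, unadjusted p = 0.00414, became 1.03 with p = 0.0356 by edgeR without that cow. TNFRSF4, the costimulatory receptor OX40 of activated T cells, had 2.91, 2.29, 1.22 and 4.57 CPM in the high value cows and 0.994, 0.627, 0.679, 0.15 and 0.54 in the low value cows (2.19 ± 0.67 in log2, unadjusted p = 0.00715). This gene was at the lower end of what the libraries measured, at 5 CPM or less in all cows. TMEM106A, a membrane protein, was even within the high value cows, with 117, 115, 102 and 114 CPM in the high value cows and 59.0, 84.5, 65.3, 51.0 and 43.2 in the low value cows (0.88 ± 0.30 in log2, unadjusted p = 0.0118). HYAL1, a lysosomal hyaluronidase, had 35.3, 29.1, 35.2 and 64.4 CPM in the high value cows and 17.5, 23.6, 15.8, 24.7 and 23.2 in the low value cows (0.97 ± 0.33 in log2, unadjusted p = 0.0138), and its edgeR p was 0.0796 without cow 3235. EDNRB, the endothelin receptor B, overlapped between groups through cow 3075, with 162, 167, 79.7 and 139.7 CPM in the high value cows and 60.1, 67.8, 97.8, 30.1 and 60.6 in the low value cows (1.12 ± 0.38 in log2, unadjusted p = 0.0134).

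On the lower side, MEGF10, a receptor for the engulfment of dying cells, had 5.26, 3.33, 2.44 and 2.12 CPM in cows 2814, 2920, 3075 and 3235. MEGF10 had 6.76, 8.59, 18.1, 21.6 and 7.38 CPM in cows 3014, 3057, 3064, 3262 and 3280. All high value cows lay below all low value cows and the difference was -1.92 ± 0.53 in log2, unadjusted p = 0.00395. MKX, a homeobox factor of tendon, lay near the limit of counting, with 0.128, 0.401, 0.541 and 0.223 CPM in the high value cows and 1.49, 0.627, 1.02, 2.47 and 1.62 in the low value cows. It passed the count filter through the low value cows alone, so its lack of overlap and its low p follow in part from the filter and are not counted as support. IL33, an alarmin released by damaged barrier cells, had 0.128, 1.28, 1.49 and 0 CPM in the high value cows and 5.17, 1.07, 1.63, 13.9 and 56.1 in the low value cows (-4.42 ± 1.40 in log2, unadjusted p = 0.0086). Cows 3280 and 3262 were the highest in IL33, and cow 3057, lower than 2 of the high value cows, made the groups overlap. C28H10orf116 (now ADIRF, the adipogenesis regulatory factor) had 0.128, 0.281, 0.271 and 0.334 CPM in the high value cows and 1.29, 0.69, 0.306, 7.11 and 3.78 in the low value cows. It too passed the filter through the low value cows alone and fell below the filter in 4 of the 9 fits that left out a cow. With TSACC, these were the 3 of the 125 genes at an unadjusted p under 0.05 that reached the filter level in 1 group alone. TNFRSF4 reached that level in 4 high value and 3 low value cows, and IL33 in 2 high value and 5 low value cows. Their low p, and the lack of overlap of TNFRSF4, may thus also follow in part from the filter.

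The remaining 6 genes on the lower side were highest in cow 3262 or cow 3280. KRT23, an epithelial keratin, had 0.728, 0.481, 0.677 and 1.56 CPM in the high value cows and 2.78, 3.64, 1.26, 5.02 and 2.34 in the low value cows (-1.81 ± 0.65 in log2, unadjusted p = 0.0162). JUP, plakoglobin of cell junctions, had 1.58, 2.17, 4.87 and 2.12 CPM in the high value cows and 5.86, 4.33, 4.72, 13.5 and 12.1 in the low value cows (-1.60 ± 0.57 in log2, unadjusted p = 0.0168). SLC44A3, a choline transporter-like protein, had 2.48, 2.33, 7.44 and 1.56 CPM in the high value cows and 13.0, 6.46, 4.52, 11.1 and 25.4 in the low value cows (-1.81 ± 0.65 in log2, unadjusted p = 0.0172). In these, and in CKS1B, a cyclin-dependent kinase subunit, RNASEH2C, of ribonuclease H2, and HEXIM2, an inhibitor of transcription elongation, these cows also held 2 of the 3 highest values or, in KRT23, 1 of them. CKS1B differed by -1.35 ± 0.46, RNASEH2C by -1.74 ± 0.64 and HEXIM2 by -2.32 ± 0.82, with unadjusted p = 0.0124, 0.0184 and 0.0155. Without cow 3280 the edgeR p was 0.0573 for RNASEH2C and 0.0529 for SLC44A3, and KRT23 lost the threshold without cow 2920. KRT23 reached the filter level in 2 high value and 5 low value cows, so its low p may follow in part from the filter.

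**Figure D3:**
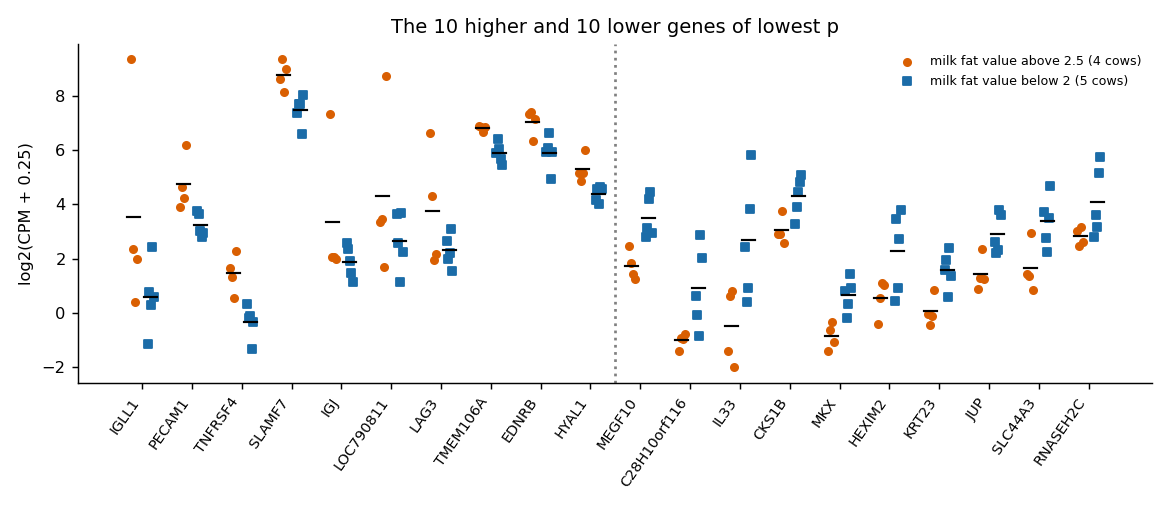
Expression as log2(CPM + 0.25) of the 10 genes of lowest unadjusted p that were higher (left of the dotted line) and the 10 that were lower (right) in the high value cows, with 1 point per cow and a black line at the group mean. The groups do not overlap in PECAM1, TNFRSF4, SLAMF7, TMEM106A, HYAL1, MEGF10 and MKX, and single points stand far above the others in IGLL1, IGJ, LOC790811 and LAG3.

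Across all genes tested, 14 (0.152%) had every high value cow above every low value cow and 16 (0.173%) had every high value cow below, and 14 of these 30 genes also had an unadjusted p under 0.05. Together the 30 genes were 0.325% of those tested. With no group difference, the 126 ways to choose 4 of 9 cows would give either order in a fraction of 0.0159 of genes. The observed share was below that. Besides the 7 of the 30 genes already named, 3 further examples were chosen after their values were seen. FAM57B, also known as a ceramide synthase, had 2.10, 2.89, 1.35 and 2.45 CPM in the high value cows and 0.199, 1.003, 0.849, 0.449 and 0.54 in the low value cows (1.82 ± 0.63 in log2, unadjusted p = 0.014). BGN, the matrix proteoglycan biglycan, had 5.78, 2.49, 2.98 and 4.34 CPM in the high value cows and 7.06, 12.5, 8.18, 11.2 and 6.48 in the low value cows (-1.22 ± 0.45 in log2, unadjusted p = 0.0201). ERLIN2, an endoplasmic reticulum protein that acts in sterol sensing, had 169, 181, 148 and 205 CPM in the high value cows and 102, 129, 119, 121 and 83.3 in the low value cows (0.67 ± 0.29 in log2, unadjusted p = 0.0433). Of the 125 genes at an unadjusted p under 0.05, 13 stayed under it with the same sign in all 9 fits that left out 1 cow. These were PECAM1, TNFRSF4, SLAMF7, TMEM106A, EDNRB, FAM57B and ALAS1 on the higher side and MEGF10, IL33, CKS1B, HEXIM2, JUP and TMEM220 on the lower side. A gene that dropped below the count filter in any of these fits was not counted. All 13 were chosen at that threshold in the same cows, which these fits largely reuse, so the count is no independent support. With the milk fat value as a continuous variable, 19 of 9236 genes (0.206%) had an edgeR p under 0.05. By that threshold alone 461.8 would be expected. Of the 13 genes, SLAMF7 kept an edgeR p under 0.05. EDNRB (0.0684), PECAM1 (0.109), TMEM106A (0.132), TNFRSF4 (0.181), MEGF10 (0.267), JUP (0.332), HEXIM2 (0.475), CKS1B (0.556) and IL33 (0.68) did not. The p of FAM57B, ALAS1 and TMEM220 in this fit is not given here. FAM57B reached the count filter level in 4 high value and 2 low value cows, so its separation may follow in part from the filter, as for TNFRSF4.

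Lists of cell state gave few differences between the groups alone. Of 16 inflammatory cytokine genes and their regulators and 12 immediate early genes, 0 had an unadjusted p under 0.05, with medians of 0.47 and 0.47. Without cow 3014, 4 of 16 and 4 of 12 were higher at that threshold, beside 3.61% of all genes, with medians of 1.49 and 0.88. In that fit 3 of 7 neutrophil markers were higher too, with a median of 0.89. Without cow 3235 the inflammatory median was -0.24. IL8 (now CXCL8, the chief neutrophil attractant) had 198, 2665, 1119 and 3629 CPM in cows 2814, 2920, 3075 and 3235. IL8 had 6474, 1872, 212, 102 and 379 CPM in cows 3014, 3057, 3064, 3262 and 3280. Cow 3014, of low value and with the longest lactation period, was the highest, and cow 3262 the lowest, also of low value. Of 14 interferon response genes, IFI6 was lower at an unadjusted p under 0.05 and none was higher, beside 0.812% and 0.541% of all genes. The median was -0.16. IFI6 had 11.9, 11.6, 21.4 and 26.8 CPM in the high value cows and 22.9, 26.1, 24.7, 55.6 and 42.5 in the low value cows (-0.94 ± 0.41 in log2, unadjusted p = 0.0428). All 15 cell cycle genes tested had a lower fitted level in the high value cows, with a median of -0.75. Of them 1, the mitotic cyclin CCNB2, was lower at an unadjusted p under 0.05, beside 0.812% of all genes. CCNB2 had 5.18, 6.90, 5.41 and 3.79 CPM in the high value cows and 3.58, 12.6, 30.5, 17.1 and 6.66 in the low value cows (-1.41 ± 0.59 in log2, unadjusted p = 0.0356). Cow 3064 had the highest CCNB2 value, and without it the median of the list was -0.07 and 0 of 15 reached that threshold. Of 6 acute phase and antimicrobial genes tested the median was -1.71 and 0 reached it. LTF, the lactoferrin of milk and of neutrophil granules, had 13.3, 101, 459.7 and 78.3 CPM in the high value cows and 302, 104, 57.1, 3234 and 799 in the low value cows (-2.46 ± 1.24 in log2, unadjusted p = 0.0716), and cow 3262, rich in milk protein counts, was the highest. Glycolysis and hypoxia genes (17 tested, median 0.18) and endoplasmic reticulum chaperones (17 tested, median 0.32) had 0 each.

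Since the high value cows had the shorter lactation periods on average, the same fit was repeated with lactation period as a covariate. Again no gene passed an FDR of 0.05 by edgeR, the lowest adjusted p being 0.248, but 1404 genes (15.2%) had an unadjusted p under 0.05, 789 (8.54%) higher and 615 (6.66%) lower in the high value cows at a given lactation period. Limma voom gave 0 genes at an FDR of 0.05 and 1657 at the unadjusted threshold, and DESeq2 gave 259 at an FDR of 0.05 and 1808 at the unadjusted threshold. Of the 125 genes of the fit without the covariate, 109 (87.2%) were among the 1404 (7.76% of them), all with the same sign. Lactation period itself had an unadjusted p under 0.05 for 2216 genes in this fit, and an FDR under 0.05 for none, the lowest adjusted p being 0.0684.

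The inflammatory list held the most genes of low p in this fit. With the covariate, 11 of 16 were higher at an unadjusted p under 0.05 and 0 lower, beside 8.54% and 6.66% of all genes, and the median was 1.56 against 0.07 over all genes. With the milk yield value as covariate in place of lactation period, 0 of 16 were higher, beside 3.59% of all genes. The median was then 0.34. TNFAIP3, the A20 protein that limits NF-κB signalling, had 53.3, 431, 36.5 and 334 CPM in cows 2814, 2920, 3075 and 3235. TNFAIP3 had 326, 111, 90.0, 3.97 and 18.5 CPM in cows 3014, 3057, 3064, 3262 and 3280. It ranked high with long lactation in both groups, and at like lactation periods the high value cow was the higher one, 53.3 CPM in cow 2814 (41) against 3.97 in cow 3262 (65) and 36.5 in cow 3075 (101) against 18.5 in cow 3280 (108). Cows 3262 and 3280 also held the most milk protein counts, and cows 2920 and 3235 had no low value cow of like lactation period. The TNFAIP3 difference was 0.96 ± 1.03 without the covariate and 3.12 ± 0.55, unadjusted p = 0.000143, with it. IL8 differed by 2.07 ± 0.69, unadjusted p = 0.0123, with the covariate, CXCL2, another neutrophil chemokine, by 2.05 ± 0.80, unadjusted p = 0.0259, and IL10, an anti-inflammatory cytokine, by 1.78 ± 0.59, unadjusted p = 0.0115. IL1B, IL6, CXCL3, IL1RN and CCL2 did not reach that threshold. Chemokines such as CXCL2 and CXCL3 have near-identical copies, so how reads were divided among them is uncertain. The lactation coefficient of TNFAIP3 was 2.51 ± 0.38 on the log2 scale per 100 units of lactation period in the same fit (adjusted p = 0.0684 by edgeR) and that of IL8 was 2.44 ± 0.50 (adjusted p = 0.0876). Of the 16 inflammatory genes, 14 had a positive lactation coefficient at an unadjusted p under 0.05, beside 12.5% of all genes. So did 10 of 14 interferon response genes, 8 of 12 immediate early genes and 4 of 7 neutrophil markers.

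Of the immediate early genes, which respond within minutes to a stimulus, 6 of 12 were higher with the covariate, beside 8.54% of all genes (median 1.01). This count was 2 to 7 of 12 when each cow was left out, 2 without cow 3280 and 3 without cow 2920, 3075, 3235 or 3262. It was 0 without the 3 cows of most milk protein counts, beside 3.96% of all genes. EGR1, a transcription factor, differed by 1.59 ± 0.47, unadjusted p = 0.00616, and ATF3, a stress factor, by 1.07 ± 0.35, unadjusted p = 0.0104. On the lower side stood 7 of 11 epithelial markers (median -2.17), 3 of 12 fat globule genes and 3 of 11 genes of fatty acid synthesis, FASN among them (-2.59 ± 0.95, unadjusted p = 0.0198), while ACLY was higher (0.98 ± 0.40, unadjusted p = 0.0311), beside 6.66% of all genes lower and 8.54% higher. The epithelial count was 0 of 10 without cow 3262, 1 of 11 without cow 3235, 2 of 11 without cow 2920 and 0 of 10 without the 3 cows of most milk protein counts, and it was 10 of 11 without cow 3075. Without those 3 cows 0 of 14 fat globule and 0 of 12 synthesis genes were lower. The fat globule count was also 0 of 13 without cow 2920 and 1 of 12 without cow 3262, and 1 of 12 synthesis genes was lower without cow 3235 or cow 3280. LPL differed by -1.41 ± 0.46, unadjusted p = 0.011, PLIN2 by -1.63 ± 0.64, unadjusted p = 0.0264 and KRT8 by -1.99 ± 0.72, unadjusted p = 0.018. None of the 7 milk protein genes reached the threshold in edgeR (median -2.67), whereas 6 of 7 were lower in limma voom (median -4.70, beside 9.21% of all genes) and 7 of 7 in edgeR without cow 3075 (beside 11.8%). Of the cholesterol lists, ACAT2 (1.40 ± 0.33, unadjusted p = 0.00137) and ABCA1 (3.30 ± 0.74, unadjusted p = 0.000914) were higher, with 4 of 21 synthesis genes higher and 2 lower, and 4 of 13 efflux genes higher, again beside 8.54% and 6.66%. Of the efflux genes 2 were higher without cow 3280 and 1 without the 3 cows of most milk protein counts. VEGFA, of the hypoxia list, was higher too (2.58 ± 0.56, unadjusted p = 0.000752). The counts for neutrophil (0 of 7), macrophage (0 of 8) and T cell (0 of 10) markers stayed at 0, and 2 of 6 cytotoxic markers were higher. The neutrophil, macrophage and T cell medians were 0.60, 0.28 and 0.55, against -0.11, 0.26 and -0.02 without the covariate.

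**Figure D4:**
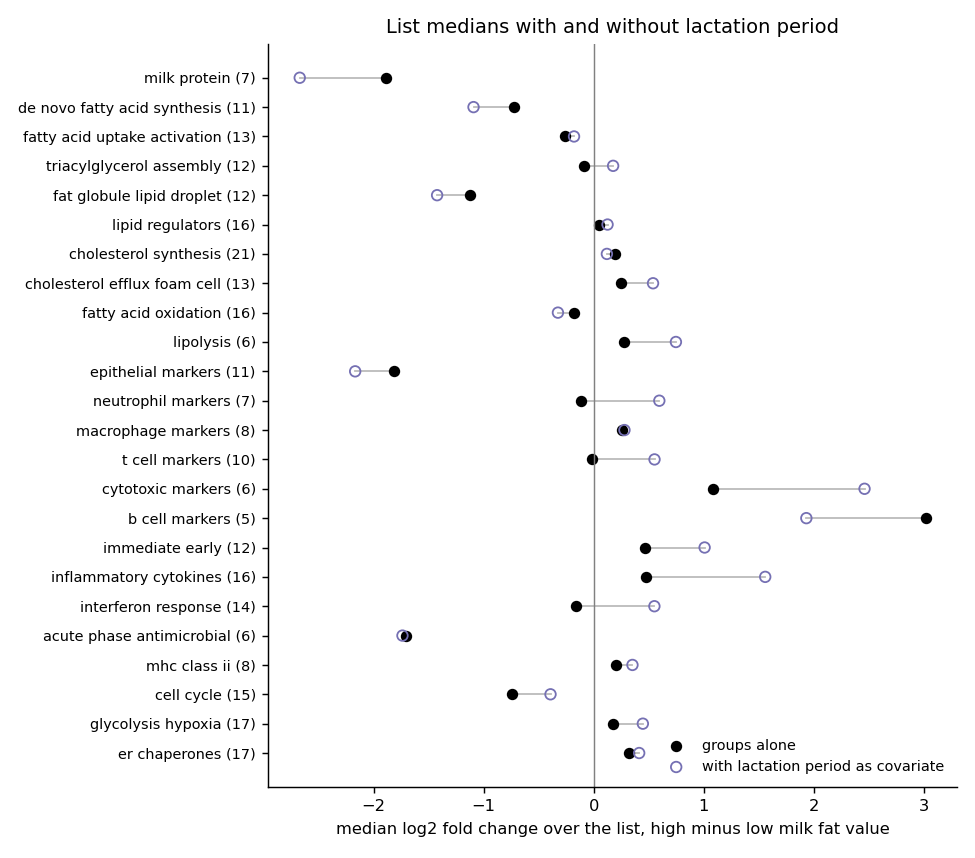
Median log2 fold change over the tested members of each list (number in brackets), high over low milk fat value, from the groups alone (filled) and with lactation period as covariate (open). The inflammatory list moves from 0.47 to 1.56 and the epithelial list from -1.81 to -2.17, and the medians are shown without a test.

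Of the genes of lowest p in this fit, named after their values were seen, CCR3, the eotaxin receptor of eosinophils, had 2.78, 12.1, 3.79 and 16.9 CPM in cows 2814, 2920, 3075 and 3235. CCR3 had 3.98, 1.63, 1.09, 0 and 0.54 CPM in cows 3014, 3057, 3064, 3262 and 3280. Its difference was 4.51 ± 0.76, unadjusted p = 9.73e-05, with the covariate and 2.61 ± 0.99 without it. CCR3 reached the filter level in 4 high value and 3 low value cows, so its low p may follow in part from the filter. CLEC4D, a C-type lectin of myeloid cells, had 29.4, 107, 52.0 and 103 CPM in the high value cows and 69.7, 59.0, 55.4, 12.4 and 19.4 in the low value cows (1.65 ± 0.28, unadjusted p = 0.000111). CD80, a costimulatory ligand of antigen presenting cells, had 6.89, 44.7, 11.2 and 18.9 CPM in the high value cows and 28.9, 20.1, 17.8, 1.35 and 1.62 in the low value cows (2.46 ± 0.47, unadjusted p = 0.000283). Among the lower genes, EPHX1, the microsomal epoxide hydrolase, had 5.52, 4.57, 11.8 and 2.90 CPM in the high value cows and 8.25, 7.08, 13.0, 46.8 and 34.2 in the low value cows (-2.23 ± 0.45, unadjusted p = 0.000394), and PC, pyruvate carboxylase, had 3.81, 1.28, 5.68 and 1.45 CPM in the high value cows and 3.48, 5.02, 3.56, 27.2 and 19.4 in the low value cows (-2.52 ± 0.51, unadjusted p = 0.000457). In both, cows 3262 and 3280 were the highest. SLAMF7, PECAM1 and MEGF10 had an unadjusted p under 0.05 in this fit too, with 1.43 ± 0.40, 2.10 ± 0.43 and -2.23 ± 0.53, whereas IGLL1, IGJ and MS4A1 did not (unadjusted p = 0.244, 0.395 and 0.242).

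**Figure D5:**
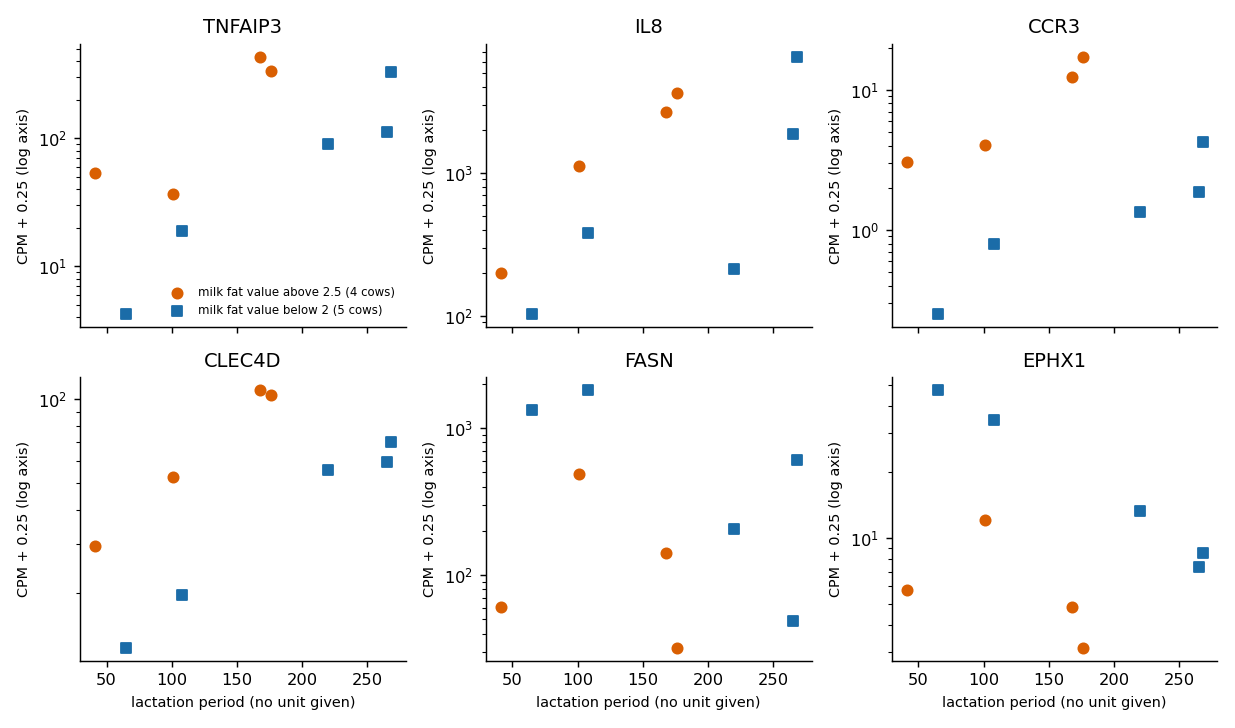
CPM + 0.25 on a log axis of 6 genes in each of the 9 cows against lactation period, coloured by milk fat group. In TNFAIP3, CCR3 and CLEC4D the high value cows lie above the low value cows of like lactation period, and in EPHX1 below.

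The covariate rested on few cows. No high value cow had a lactation period above 176, while 3 low value cows had one of 220 or more. Of the 1404 genes, 334 stayed under an unadjusted p of 0.05 with the same sign in all 9 fits that left out 1 cow. They were chosen at that threshold in the same cows, so this count is no independent support either. The number of genes at that threshold was 658 without cow 2920 and 1960 without cow 3075, and 478 without the 3 cows richest in milk protein counts. In these same fits 6, 10 and 8 of the 16 inflammatory genes were higher, beside 4.21%, 8.85% and 3.96% of all genes. Without cow 3235 they were 6 and without cow 3280 7 of 16, beside 7.84% and 6.0%. Adding parity gave 610 genes, with 7 of the 16 higher beside 4.10% of all genes. With the milk yield value in place of lactation period, 1 of 12 immediate early genes was higher, beside 3.59% of all genes. In that fit 9 of 11 epithelial markers were lower, and 5 of 11 synthesis genes were lower and 1 higher, beside 5.46% of all genes lower. Cow 2920, the single cow whose removal lowered the number of genes in the lactation fit most, also had the highest mapping rate of the 9 cows in the paper's list. Its rate stood well above a narrow range held by the other HY cows. The same cow had the highest milk fat value. Whether either bears on the counts was not tested.

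The relation to the milk fat value was also set against that in the 12 LY cows, whose values, -14.377 to -2.782, did not reach those of the high value HY cows. As a slope over the value, it differed between HY and LY cows for no gene at an FDR of 0.05 by edgeR (lowest adjusted p 0.999) and for 220 of 10084 genes (2.18%) at an unadjusted p under 0.05, a count that reached 411 without cow 2920 and 376 without cow 3235. TNF, the cytokine tumor necrosis factor, had the lowest p of this test (unadjusted p = 0.000778). Within HY, 50 genes (0.496%) had a slope at an unadjusted p under 0.05, and within LY 302 (2.99%). Of the 26 named genes with an unadjusted p under 0.05 between the HY groups, 16 had a slope of the same sign in LY, 1 of the 26 (GNLY) had a slope at an unadjusted p under 0.05 there, and in 0 of 26 did the slopes differ at that threshold, the lowest being p = 0.0561 by edgeR for EDNRB.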

How the data were processed

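Cells were taken from milk after the evening milking at one farm, and their total RNA was sequenced as paired ends on an Illumina HiSeq. The authors trimmed the reads with Trimmomatic, aligned them to BosTau7 with TopHat2 and Bowtie2, converted the alignments with SAMtools and counted reads per gene with HTSeq, and the deposited values are these raw counts, not normalised. Tool versions and the strand setting are not given in the sources used here. Summary lines and a row without a gene name, holding 0.036 to 0.139% of the counts, were left out.

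The 4 and 5 HY cows were compared with edgeR 4.0.16 in R 4.3.3 (TMM factors, filterByExpr with a minimum count of 10, quasi-likelihood F-test, Benjamini-Hochberg adjustment over 9236 genes). Standard errors are the log2 fold change divided by the square root of F. DESeq2 1.42.0, limma 3.58.1, other filters, covariates and fits without each cow were alternatives, and the edgeR step was tested on simulated counts. Plotted values are log2(CPM + 0.25). The lactation covariate fit was also run under these alternatives, chosen after seeing the data, as was leaving out the 3 cows of most milk protein counts. Named genes were the 10 of lowest p in each direction, list members at an unadjusted p under 0.05 and a fixed set of defining genes, and other list members and the genes of lowest p with the covariate were named after their values were seen. There were 25 lists, and of their 356 symbols 310 were in the files and 276 were tested. The cow groups and the lists were chosen with earlier results of these data known. Each library came from a separate cow. RefSeq symbols (ARS-UCD2.0) were used for names alone, 8515 of the tested symbols matching directly and 640 as synonyms, and 23 rows whose symbols had turned into dates were kept unnamed. The values of 1 further gene are not reported here.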

Additional observations from a re-analysis of the deposited data

Results flagged for a closer look

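Each of 148 sets of values within a group of 4 or 5 cows was examined for 1 cow far from the others by Dixon's test. It set 9 apart, where chance at about 1 in 20 would give 7.4, so a single one of them carries little weight.

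Of the high value cows, cow 2814 had 158 CPM of the immunoglobulin joining chain IGJ against 3.68 to 3.92 in the other 3, and its summed cholesterol efflux and foam cell genes stood at 6056 CPM against 4074 to 4227. Cow 3075 had 39.5% of its counts on milk protein genes, against 0.118 to 3.42% in the other 3, and 47.0% on its 10 most abundant genes, against 11.4 to 13.0%. In the same cow the summed genes of fatty acid uptake reached 13140 CPM against 3665 to 4263, and those of the fat globule 8744 CPM against 2188 to 2706. Of the low value cows, cow 3280 had 13420 CPM of the droplet coat gene PLIN2 against 1608 to 2362 in the other 4, and 9.17 CPM of the lipogenic activator SREBF1, its group's lowest, against 33.4 to 44.7. Cow 3014 had summed immediate early genes of 8494 CPM against 1307 to 2076.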

How the results depend on the processing

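The limits lie in the 9 cows. The groups of 4 and 5 differ in mean lactation period and in who carries milk protein RNA, and cows of both groups lie close to the boundary of the fat value. Each cow gave a single library, of 7878557 to 25550423 counts. How far the spread between cows and the counting each set the precision was not tested. No paired analysis was possible because each cow belongs to 1 group and the cow numbers are not shared between groups.

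Without a covariate, 0 genes passed an FDR of 0.05 in any alternative run. The 125 genes at an unadjusted p under 0.05 became 264 with DESeq2 (61 higher, 203 lower), 307 with no filter on low counts, 1404 with lactation period, 610 with lactation period and parity, 836 with the milk yield value as covariate, 19 with the fat value as a continuous variable, 394 with all 21 cows in the fit and 203 without the 3 cows of most milk protein counts. Limma voom gave 86 (52 higher, 34 lower), DESeq2 size factors 122 (40 higher, 82 lower), at least 10 counts in every cow 101, and removal of the milk protein genes 129. Leaving out each cow gave 60 to 631, the count moving by over 1.5 times without cow 3014 (493, with 335 higher and 158 lower), 3057 (189), 3064 (202), 3075 (631), 3235 (61), 3262 (60) and 3280 (78). The causes of these moves were not tested. The number of named genes past the unadjusted threshold was 26, and over 527 comparisons with the alternatives 431 kept the threshold, 96 lost it and 0 reversed. These genes were chosen at that threshold in the same cows, which the alternatives largely reuse, so the counts are no independent support. A fit in which a gene fell below the count filter was left out of the comparisons.

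With lactation period as a covariate, DESeq2 gave 259 genes at an FDR of 0.05 (170 higher, 89 lower, lowest adjusted p 4.751e-06), where edgeR and limma voom gave 0. The 1404 genes at an unadjusted p under 0.05 became 610 with parity added and 478 without the 3 cows of most milk protein counts, and 658 to 1960 when each cow was left out, with 658 without cow 2920, 929 without cow 3262 and 911 without cow 3280. The slope difference between HY and LY cows stayed at 0 genes at an FDR of 0.05 in each alternative run. At an unadjusted p under 0.05 its 220 genes became 216 to 411 when each cow was left out (411 without cow 2920, 376 without cow 3235), 371 with no filter and 1021 with lactation period.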

Other observations

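BOLA-DQB, a class II antigen presentation gene of the bovine major histocompatibility complex, had no count in 5 of the 9 HY cows and counts in the others. It had 0, 0, 10.2 and 0 CPM in cows 2814, 2920, 3075 and 3235, and 11.03, 22.4, 33.7, 0 and 0 in cows 3014, 3057, 3064, 3262 and 3280. Over all 9 cows the groups overlapped (edgeR adjusted p = 0.998). The class II genes of this complex have many alleles and near-identical copies, so the division of reads among them is uncertain.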
